A study of Mus musculus with 6 samples.

Results

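The mitotic spindle and kinetochore genes examined here are 55 genes of cell division, chosen by symbol for their roles in division, out of 55487 genes in the count table. All 55 were expressed highly enough to be tested, among 14531 genes tested. The RNA came from mouse pulmonary artery smooth muscle cells (mPASMCs), the contractile cells of the lung's arterial wall. The cells were obtained from Procell Life Science & Technology, grown in medium with fetal bovine serum and transfected with siRNA by Lipofectamine 3000. There were 3 libraries with a non-targeting siRNA (si-NC, labelled Control) and 3 with an siRNA against the long noncoding RNA *Snhg18* (si-*Snhg18*, labelled as knockdown), and both groups therefore carry a transfection. The oxygen level in culture, the hours between transfection and harvest, the strain, age and sex of the mice, and whether the 3 repeats were separate cultures are not given in the sources used here, so the p-values measure only the spread between these libraries.

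A dividing cell attaches each chromosome to the spindle, a bipolar array of microtubules, through the kinetochore, a protein assembly built on the centromere. The spindle assembly checkpoint holds the cell in metaphase until every kinetochore is attached, after which the anaphase promoting complex has securin and cyclin B destroyed, cohesin is cut and the cell divides by cytokinesis. Most transcripts of this machinery accumulate late in the cell cycle, in G2 and M phase, and are scarce in resting cells, which is why they serve as markers of proliferation in vascular smooth muscle. Cohesin itself and several microtubule regulators are needed in interphase too and are made throughout the cycle. In a bulk sample, fewer dividing cells and less RNA per dividing cell cannot be told apart.

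Promoters of G2/M genes often hold a cell cycle genes homology region (CHR), a short element near the transcription start that is bound by MuvB complexes, together with CCAAT boxes, which NF-Y binds. Windows from 250 bases before to 50 bases after the RefSeq transcription start (GRCm38.p6) were held for 45 of the 55 members and searched on both strands for TTTGAA and TTCGAA, the letters of CHR elements, and for CCAAT boxes. The letters TTTGAA stood in the windows of 25 members (55.6%), against 20.2% of the 27025 genes with a window, and TTCGAA stood in those of 6 members (13.3%), against 1.8%. At least 1 of the 2 was present in 29 members (64.4%, against 21.7%), CCAAT in 32 members (71.1%, against 41.1%), and both kinds of letters in 24 members (53.3%, against 8.61%). Of the 29 members, 25 had such a match within 50 bases of the start. A member with several windows was counted if any of them matched. Positions were not counted for all genes, so this number has no share of all genes beside it. These are matches of letters and not measured sites, and matches of different motifs may share bases. The windows of 3 members from 3 roles and that of *Clip1*, the member with the largest rise, are shown so that the letters can be read beside the values given further on. The 3 had the smallest p with the replicate block (explained below) among members called lower that had a single window and held TTTGAA or TTCGAA. They were thus picked for holding these letters. *Nuf2* and *Taok1*, also called lower, held neither and are not shown. Capitals mark TTTGAA or TTCGAA and CCAAT on either strand (TTCAAA and ATTGG are the reverse letters).
Bub1 promoter (chr2:127831810-127832109, minus strand): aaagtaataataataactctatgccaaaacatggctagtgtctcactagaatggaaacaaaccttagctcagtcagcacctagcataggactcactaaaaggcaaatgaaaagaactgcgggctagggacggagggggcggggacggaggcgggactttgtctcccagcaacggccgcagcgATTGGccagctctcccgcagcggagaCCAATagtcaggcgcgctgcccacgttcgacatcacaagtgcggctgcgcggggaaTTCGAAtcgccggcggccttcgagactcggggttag
Cenpa promoter (chr5:30666636-30666935, plus strand): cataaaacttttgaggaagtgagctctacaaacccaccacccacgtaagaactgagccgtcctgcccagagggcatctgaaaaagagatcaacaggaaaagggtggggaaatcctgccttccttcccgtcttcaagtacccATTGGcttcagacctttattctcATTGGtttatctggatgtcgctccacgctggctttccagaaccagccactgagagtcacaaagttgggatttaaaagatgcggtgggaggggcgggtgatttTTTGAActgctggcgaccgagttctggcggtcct
Anln promoter (chr9:22389157-22389456, minus strand): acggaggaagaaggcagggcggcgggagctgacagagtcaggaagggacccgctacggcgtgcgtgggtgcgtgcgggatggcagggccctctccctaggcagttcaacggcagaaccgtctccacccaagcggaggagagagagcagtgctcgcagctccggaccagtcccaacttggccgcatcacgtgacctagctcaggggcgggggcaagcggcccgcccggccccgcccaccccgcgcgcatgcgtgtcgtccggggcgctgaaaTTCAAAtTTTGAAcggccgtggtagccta
Clip1 promoter (chr5:123684312-123684611, minus strand): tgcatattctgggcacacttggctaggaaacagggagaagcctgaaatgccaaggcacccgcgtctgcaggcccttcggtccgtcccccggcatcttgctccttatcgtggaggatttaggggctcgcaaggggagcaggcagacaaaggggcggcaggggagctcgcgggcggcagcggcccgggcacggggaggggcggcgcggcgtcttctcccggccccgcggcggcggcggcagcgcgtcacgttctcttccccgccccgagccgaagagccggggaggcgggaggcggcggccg
Counting the start as position 1 and the base before it as -1, TTCGAA began at position 15 of *Bub1* and its CCAAT letters at -68 and -42. In *Cenpa*, TTTGAA began at position 17 and CCAAT letters at -109 and -86. In *Anln*, matches of TTTGAA began at positions 22 and 29 and none of CCAAT was found, and the window of *Clip1* held none of the 3 motifs.

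The knockdown was seen in every library. *Snhg18* stood at 23.5, 22.4 and 22.2 CPM in si-NC and 10.6, 11.2 and 9.97 CPM in si-*Snhg18*, so that 46.7% of its level remained (log2 fold change -1.10 ± 0.10 (SE), edgeR quasi-likelihood test, adjusted p = 0.0073). The libraries held 18097718 to 25988746 counted reads, with si-*Snhg18* 3 the smallest. Here and below, 3 values for a group are those of libraries 1, 2 and 3, in CPM (a gene's reads scaled to a fixed library total after TMM normalization), n = 3 in each group, fold changes are si-*Snhg18* against si-NC, and a change was called at an adjusted p under 0.05 over all 14531 genes. In the paragraphs on single roles, a value in parentheses with ± is the log2 fold change and its SE with the replicate number as a block (explained with the counts of calls below). Of the smooth muscle markers, 8 of 8 were tested, with summed levels of 3647 to 3803 CPM in si-NC and 2733 to 3598 CPM in si-*Snhg18*. Most of this sum was *Cald1*, *Acta2* and *Tagln*, with log2 fold changes of -0.26, -0.22 and -0.51 without the block. Those of *Smtn*, *Lmod1*, *Cnn1*, *Myh11* and *Des* were 0.004, -0.23, -0.48, -0.60 and -1.79. Only *Tagln* was called without the block (adjusted p = 0.043). Fibroblast markers, 5 of 6 tested, summed to 2285 to 2984 CPM in si-NC and 1416 to 2230 CPM in si-*Snhg18*. Most of this sum was *Col1a1* (mean 1977 against 1302 CPM) and *Pdgfra* (477 against 376 CPM). Log2 fold changes of *Dcn*, *Dpt* and *Lum* were 0.06, 0.28 and -0.43 without the block. Endothelial (4 of 6 tested, 12.5 to 14.1 against 13.4 to 15.4 CPM) and leukocyte markers (2 of 6, 7.15 to 10.5 against 5.92 to 12.2 CPM) were low, with *Adgre1* and *Cd3e* at 0, and epithelial markers, 1 of 6 tested and with *Sftpc* and *Scgb1a1* at 0, summed to 7.25 to 22.7 CPM in si-NC and 1.19 to 7.42 CPM in si-*Snhg18*. Nearly all of the epithelial sum was *Krt18* (mean 12.1 against 3.50 CPM). The smooth muscle and fibroblast sums were thus below the si-NC range in each si-*Snhg18* library, like part of the members below, and their part in the results was not tested.

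The members divided into 2 sets. The 46 members of 10 mitotic roles had negative log2 fold changes in 44 cases, whereas the 9 members of the cohesin core and of the interphase microtubule group had 3 negative and 6 positive ones around a median of 0.09. The 46 together summed to 1965, 2504 and 1817 CPM in si-NC and to 1168, 1985 and 1317 CPM in si-*Snhg18*. The si-*Snhg18* mean was 71.1% of the si-NC mean, and the values were 59.5%, 79.3% and 72.4% when libraries of the same number were compared. Library 2 was the highest of its group on both sides, and si-*Snhg18* 2 lay at the level of si-NC 1 and above si-NC 3, so the groups overlapped although each pair differed in the same direction. The cohesin core summed to 561, 564 and 570.0 CPM in si-NC and 621, 596 and 604 CPM in si-*Snhg18*, or 107% of si-NC, and the interphase group to 426, 427 and 438 CPM and 429, 412 and 414 CPM, or 97.2%.

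**Figure D1:**
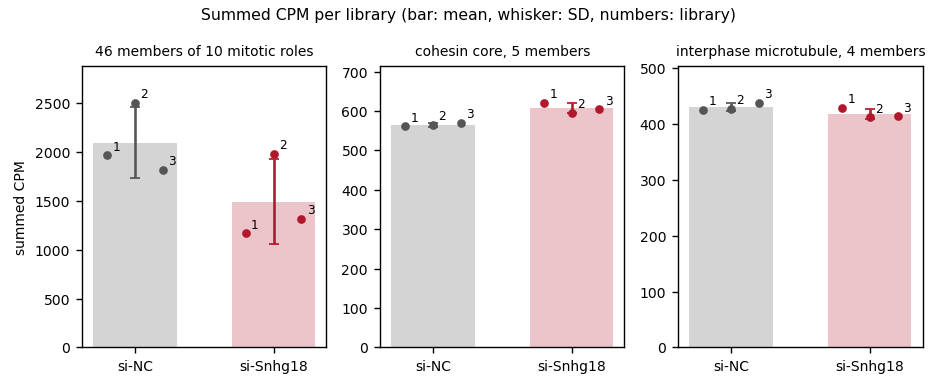
Summed CPM of the members in each library, for the 46 members of 10 mitotic roles, the 5 of the cohesin core and the 4 of the interphase microtubule group. Points are libraries with their replicate number, bars are means and whiskers are SD (n = 3 per group). In the left panel library 2 is the highest point of each group and si-NC 1 and si-*Snhg18* 2 stand at 1965 and 1985 CPM, and in the other panels the points of a group lie close together.

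How many members passed the test depended on whether the replicate number was used. Without it, 1 member was called lower (*Taok1*) and 1 higher (*Clip1*), where 3.71% of all genes were called lower and 3.65% higher. None of the 46 mitotic members was called by edgeR, although 16 of them were lower and 1 higher at an unadjusted p under 0.05, and DESeq2 called 9 of the 55 members lower and 3 higher, where it called 7.24% and 7.38% of all genes. Over all 55, 17 were lower at an unadjusted p under 0.05, where 12.1% of all genes were. With the replicate number as a block, which compares each si-*Snhg18* library with the si-NC library of the same number, 36 members were called lower, where 13.6% of all genes were called lower, and 3 were called higher (*Zwint*, *Stag2* and *Clip1*), where 13.6% of all genes were called higher. The remaining 16 were not called. The numbers were taken to pair the libraries because deviations from the group means correlated between same-numbered libraries in all 3 pairs. As the deviations of 3 libraries cancel, the correlations for numbers 1 and 3 can follow from number 2. They do not by themselves show that these libraries pair. In the sums of the 46 mitotic members, si-NC 1 was above si-NC 3 (1965 and 1817 CPM). There si-*Snhg18* 1 was below si-*Snhg18* 3 (1168 and 1317 CPM). The calls with the block depend on this pairing.

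The size of the differences changed little between the 2 analyses, while their error did. The median log2 fold change of the members was -0.57 without the block and -0.61 with it, beside 0.01 for all genes tested without the block, and the median SE went from 0.26 to 0.12. In the pairs, the median difference was -0.91, -0.34 and -0.54 on the log2 CPM scale for numbers 1, 2 and 3. The pair numbered 1 was the most negative of the 3 for 47 of the 55 members (38.9% of all genes) and the pair numbered 2 the least negative for 40 (36.1% of all genes). A lower level in 3 of 3 pairs was found for 46 members, where 30.0% of all genes showed it, and a higher level in 3 of 3 pairs for 5, where 29.6% of all genes did. Groups without overlap were found for 10 lower members, where 15.5% of all genes showed this, and for 3 higher members, where 15.4% of all genes did. The share of members that were lower without overlap was thus near that of all genes. In 46 members, si-*Snhg18* 1 and 3 were both below every si-NC library (29.7% of all genes), and in 44 si-*Snhg18* 2 was at or above the lowest si-NC library (68.2% of all genes).

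**Figure D2:**
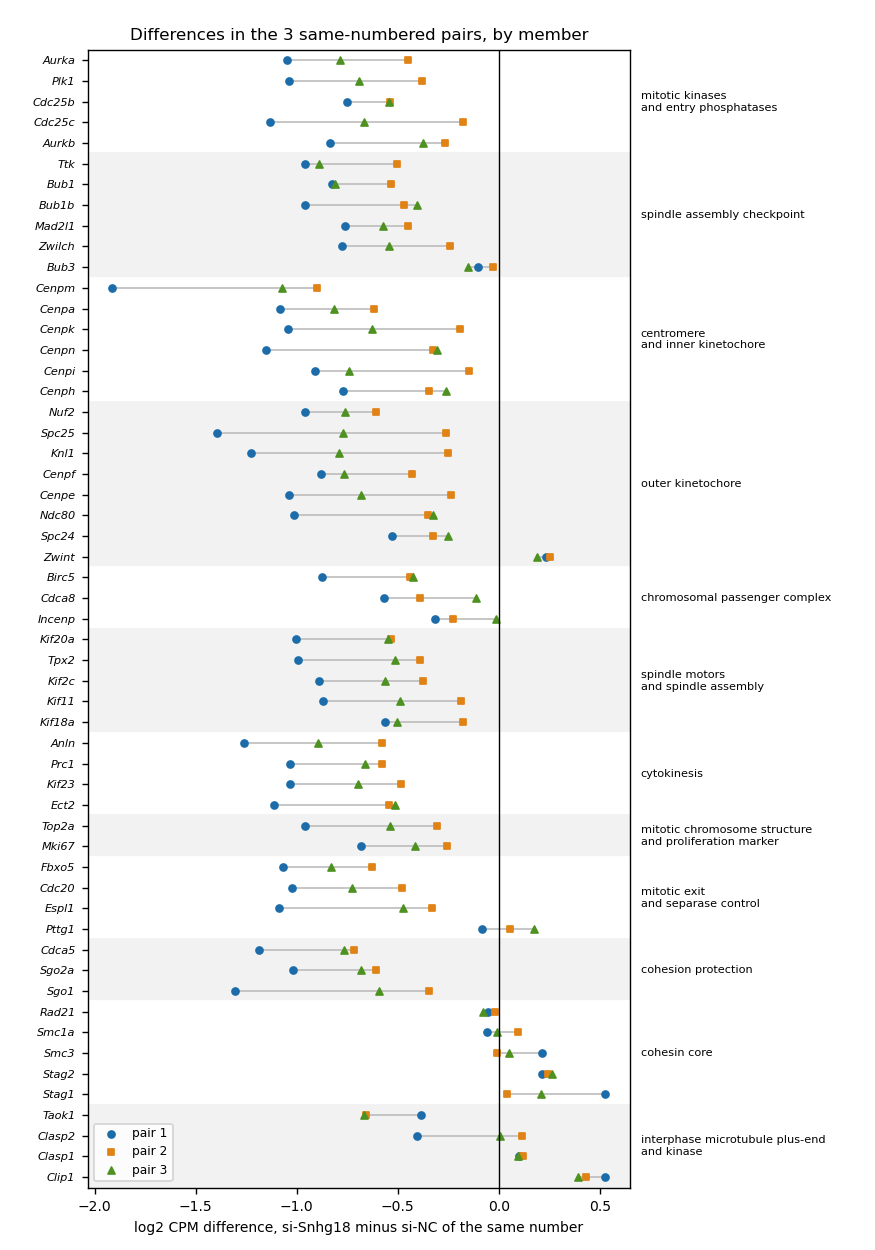
Log2 CPM difference of each member between the si-*Snhg18* and the si-NC library of the same number, with a circle, square and triangle for pairs 1, 2 and 3 and members grouped by role. Nearly all mitotic members lie left of 0 in every pair, with pair 1 mostly farthest left, while *Zwint*, *Pttg1*, the cohesin core and 3 members of the interphase group lie around or right of 0.

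**Figure D3:**
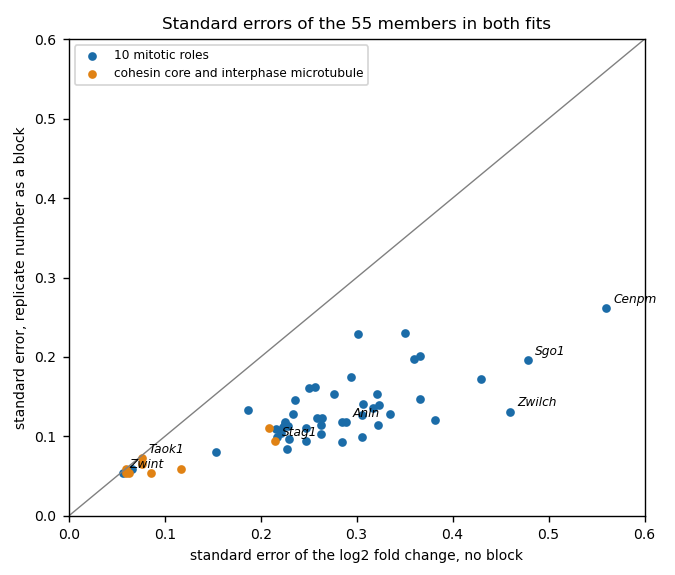
Standard error of the log2 fold change of each of the 55 members without the block (horizontal axis) and with it (vertical axis), with the line of equal error. Most mitotic members lie well under the line, and the members with the smallest errors, among them *Zwint* and *Taok1*, lie close to it.

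The calls with the block rested on some libraries more than on others. With the block and without the libraries numbered 1, 35 members were called lower and 3 higher (15.7% and 15.4% of all genes), and without those numbered 2, 37 lower and 2 higher (12.3% and 11.7% of all genes). Without those numbered 3, 4 were called lower and 1 higher (2.45% and 1.99% of all genes), although the median log2 fold change of the members was then -0.64. In the analysis without the block, no member was called when si-NC 1, si-NC 2, si-NC 3 or si-*Snhg18* 3 was left out. No gene at all was called without si-NC 1, si-NC 3 or si-*Snhg18* 3. Without si-NC 2, 0.694% of all genes were called lower and 0.371% higher. Without si-*Snhg18* 2, 37 members were called lower and 4 higher (11.7% and 10.4% of all genes) with a median of -0.92.

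Among the mitotic kinases and entry phosphatases, 4 of 5 members fell with the block and *Cdc25c* did not pass. The group's sum was 65.0% of that in si-NC. *Aurka*, the kinase of centrosome maturation and spindle poles, stood at 33.2, 41.6 and 30.5 CPM in si-NC and 16.0, 30.4 and 17.7 CPM in si-*Snhg18*, a log2 fold change of -0.76 ± 0.12 with the block (adjusted p = 0.0051), and its groups did not overlap. *Cdc25b*, a phosphatase that activates Cdk1, stood at 18.0, 26.4 and 16.9 CPM in si-NC and 10.7, 18.1 and 11.6 CPM in si-*Snhg18* (-0.61 ± 0.10, adjusted p = 0.0057). *Plk1*, the polo-like kinase that acts from mitotic entry to cytokinesis, stood at 50.2, 60.5 and 44.5 CPM in si-NC and 24.4, 46.4 and 27.5 CPM in si-*Snhg18* (-0.70 ± 0.12, adjusted p = 0.0068). For *Cdc25b* and *Plk1* only si-*Snhg18* 2 reached into the range of si-NC. *Aurkb*, the kinase of the chromosomal passenger complex, fell by less (-0.49 ± 0.13, adjusted p = 0.028), and *Cdc25c*, another Cdk1 phosphatase and one of the scarcest members, gave -0.65 ± 0.23 (adjusted p = 0.074). Without the block their adjusted p-values were 0.16 to 0.41.

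In the spindle assembly checkpoint, 5 of 6 members fell with the block. *Bub1*, a checkpoint kinase at the kinetochore whose promoter letters are shown above, stood at 30.0, 38.9 and 28.4 CPM in si-NC and 16.9, 26.8 and 16.2 CPM in si-*Snhg18*, and every si-*Snhg18* library was below every si-NC library (-0.72 ± 0.10, adjusted p = 0.0026). *Mad2l1*, the Mad2 subunit of the mitotic checkpoint complex, stood at 29.3, 41.6 and 29.7 CPM in si-NC and 17.3, 30.4 and 19.9 CPM in si-*Snhg18* (-0.59 ± 0.09, adjusted p = 0.0047). *Ttk*, the Mps1 kinase that starts checkpoint signalling, stood at 12.7, 18.3 and 12.4 CPM in si-NC and 6.49, 12.9 and 6.63 CPM in si-*Snhg18* (-0.78 ± 0.14, adjusted p = 0.0067). In *Mad2l1* and *Ttk*, si-*Snhg18* 2 lay above si-NC 1 and 3, and the other si-*Snhg18* libraries lay below every si-NC library. *Bub1b*, which encodes BubR1 (-0.61 ± 0.12, adjusted p = 0.0097), and *Zwilch*, a subunit of the RZZ complex (-0.51 ± 0.13, adjusted p = 0.027), fell too. *Bub3*, a checkpoint protein that was the member with the fourth highest level per kilobase of exon (38.1 CPM per kb in si-NC), gave -0.09 ± 0.06 (adjusted p = 0.28).

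In the centromere and inner kinetochore, all 6 members were lower in 3 of 3 pairs and 3 were called with the block. *Cenpa*, the histone H3 variant that marks the centromere, stood at 31.8, 39.3 and 30.8 CPM in si-NC and 15.0, 25.6 and 17.5 CPM in si-*Snhg18*, with no overlap between the groups (-0.84 ± 0.11, adjusted p = 0.0024, and 0.076 without the block). *Cenpm*, a subunit of the constitutive centromere-associated network, had the largest fall of all members and stood at 3.37, 7.02 and 3.90 CPM in si-NC and 0.831, 3.73 and 1.81 CPM in si-*Snhg18* (-1.27 ± 0.26, adjusted p = 0.012). *Cenpi*, of the same network, stood at 10.8, 16.3 and 9.32 CPM in si-NC and 5.74, 14.6 and 5.53 CPM in si-*Snhg18* (-0.58 ± 0.17, adjusted p = 0.044). The fall of *Cenpm* had a wide error, with pair differences of -1.91, -0.90 and -1.07, and relative to its mean it varied more among the si-NC libraries than any other member. *Cenph*, *Cenpk* and *Cenpn*, other subunits of the network, were not called, with log2 fold changes of -0.46 ± 0.16, -0.61 ± 0.23 and -0.59 ± 0.20 and adjusted p-values of 0.075, 0.091 and 0.066. *Cenpk* shares its position with *Ppwd1* on the opposite strand, which held more reads than *Cenpk* itself.

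The outer kinetochore, which holds the microtubule, had 6 members lower, 1 higher and 1 not called with the block. *Nuf2*, of the Ndc80 complex, stood at 24.7, 32.4 and 24.7 CPM in si-NC and 12.7, 21.3 and 14.5 CPM in si-*Snhg18*, without overlap (-0.78 ± 0.10, adjusted p = 0.0026). *Cenpf*, a large protein of the outer kinetochore and the G2 nucleus, stood at 47.5, 71.1 and 49.3 CPM in si-NC and 25.7, 52.9 and 28.9 CPM in si-*Snhg18* (-0.69 ± 0.10, adjusted p = 0.0034). *Cenpe*, the kinetochore kinesin, stood at 53.8, 70.6 and 54.1 CPM in si-NC and 26.2, 60.0 and 33.6 CPM in si-*Snhg18* (-0.64 ± 0.14, adjusted p = 0.015). In *Cenpf* and *Cenpe*, si-*Snhg18* 2 lay among the si-NC libraries and the other si-*Snhg18* libraries below them. *Ndc80*, *Spc25* and *Knl1* fell with the block, with log2 fold changes of -0.56 ± 0.15, -0.79 ± 0.20 and -0.75 ± 0.18, and *Spc24*, of the same complex as *Spc25*, gave -0.37 ± 0.15 (adjusted p = 0.10). *Zwint*, which recruits the RZZ complex, went the other way at 163, 159.6 and 164 CPM in si-NC and 192, 190.2 and 187 CPM in si-*Snhg18* (0.23 ± 0.05, adjusted p = 0.022 with the block and 0.065 without). It was the member with the highest level per kilobase of exon (88.4 CPM per kb in si-NC) and so set much of the role's sum, which was 87.1% of si-NC.

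The chromosomal passenger complex was called for 1 of 3 members. *Birc5*, which encodes survivin, stood at 29.4, 38.1 and 23.9 CPM in si-NC and 16.0, 28.1 and 17.8 CPM in si-*Snhg18* (-0.58 ± 0.11, adjusted p = 0.01). *Cdca8*, which encodes borealin, stood at 21.4, 30.1 and 20.2 CPM in si-NC and 14.4, 23.0 and 18.6 CPM in si-*Snhg18* (-0.36 ± 0.11, adjusted p = 0.051). *Incenp*, the scaffold that activates Aurora B, stood at 46.9, 59.6 and 45.0 CPM in si-NC and 37.7, 51.0 and 44.6 CPM in si-*Snhg18* (-0.19 ± 0.08, adjusted p = 0.13). All 3 were lower in every pair, and the third pair of *Incenp* differed by only -0.01. *Cdca8* overlaps 9930104L06Rik on the opposite strand.

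Spindle motors and spindle assembly factors fell with the block in 4 of 5 members. *Kif20a*, the kinesin MKLP2 that moves the passenger complex to the spindle midzone, stood at 85.9, 107 and 77.9 CPM in si-NC and 42.9, 73.8 and 53.2 CPM in si-*Snhg18*, without overlap (-0.69 ± 0.10, adjusted p = 0.0033). *Tpx2*, which activates Aurora A on spindle microtubules, stood at 101, 120.1 and 89.6 CPM in si-NC and 50.6, 91.8 and 62.7 CPM in si-*Snhg18* (-0.63 ± 0.11, adjusted p = 0.0073). *Kif2c*, the microtubule depolymerase MCAK, stood at 30.3, 36.0 and 26.6 CPM in si-NC and 16.3, 27.8 and 18.0 CPM in si-*Snhg18* (-0.61 ± 0.12, adjusted p = 0.0091). *Kif11*, the motor Eg5 that separates the spindle poles, also fell (-0.51 ± 0.13, adjusted p = 0.026). *Kif18a*, which limits chromosome oscillation and had the lowest level per kilobase of the members (2.67 CPM per kb), gave -0.41 ± 0.15 (adjusted p = 0.075).

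All 4 cytokinesis members fell with the block, and their sum, 58.0% of si-NC, was the lowest share of the 12 roles. *Prc1*, which bundles the microtubules of the spindle midzone, stood at 90.1, 129 and 83.0 CPM in si-NC and 43.9, 86.0 and 52.4 CPM in si-*Snhg18* (-0.76 ± 0.09, adjusted p = 0.002). *Anln*, the contractile ring protein anillin, stood at 184, 236 and 165 CPM in si-NC and 76.8, 158 and 88.7 CPM in si-*Snhg18* (-0.91 ± 0.12, adjusted p = 0.0023). *Kif23*, the motor of centralspindlin, stood at 30.3, 41.2 and 28.4 CPM in si-NC and 14.7, 29.5 and 17.5 CPM in si-*Snhg18* (-0.73 ± 0.12, adjusted p = 0.005). The groups did not overlap for *Anln*, the member with the second highest level per kilobase (42.4 CPM per kb in si-NC), nor for *Ect2*, the RhoA exchange factor (-0.72 ± 0.13, adjusted p = 0.0071). Without the block the adjusted p-values of the 4 were 0.13 to 0.19.

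*Top2a*, the topoisomerase that disentangles sister chromatids, and *Mki67*, the proliferation marker Ki-67 that coats mitotic chromosomes, both fell with the block. *Top2a* stood at 150.2, 208 and 131 CPM in si-NC and 77.4, 168 and 90.0 CPM in si-*Snhg18* (-0.60 ± 0.11, adjusted p = 0.0093), and *Mki67* at 221, 283 and 204 CPM in si-NC and 138, 236 and 153 CPM in si-*Snhg18* (-0.45 ± 0.08, adjusted p = 0.0085). Both were lower in each pair, and for both the groups overlapped through si-*Snhg18* 2. Without the block their adjusted p-values were 0.35 and 0.30.

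Of the genes of mitotic exit and separase control, 3 of 4 fell with the block. *Cdc20*, which activates the anaphase promoting complex, stood at 46.9, 58.2 and 42.1 CPM in si-NC and 23.1, 41.7 and 25.4 CPM in si-*Snhg18*, without overlap (-0.74 ± 0.11, adjusted p = 0.0037). *Fbxo5*, the inhibitor Emi1 of that complex, stood at 10.8, 15.7 and 9.70 CPM in si-NC and 5.10, 10.1 and 5.43 CPM in si-*Snhg18* (-0.84 ± 0.14, adjusted p = 0.0056). *Espl1*, separase, stood at 21.7, 28.5 and 18.2 CPM in si-NC and 10.2, 22.6 and 13.0 CPM in si-*Snhg18* (-0.63 ± 0.15, adjusted p = 0.023). All 3 were lower in each pair. *Pttg1*, securin, which holds separase inactive, gave 0.05 ± 0.13 (adjusted p = 0.81) with pair differences of -0.08, 0.06 and 0.17. *Cdc20* overlaps *Elovl1* on the opposite strand, whose counts exceed its own and whose log2 fold change was 0.54.

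All 3 genes of cohesion protection fell with the block. *Cdca5*, sororin, stood at 8.59, 10.8 and 7.80 CPM in si-NC and 3.72, 6.54 and 4.55 CPM in si-*Snhg18*, without overlap (-0.90 ± 0.16, adjusted p = 0.0073). *Sgo2a*, a shugoshin, stood at 15.5, 26.7 and 14.4 CPM in si-NC and 7.64, 17.5 and 8.99 CPM in si-*Snhg18* (-0.77 ± 0.12, adjusted p = 0.0047). *Sgo1*, the shugoshin that shields centromeric cohesin in mitosis, stood at 10.2, 16.6 and 8.30 CPM in si-NC and 4.08, 13.0 and 5.48 CPM in si-*Snhg18* (-0.73 ± 0.20, adjusted p = 0.032). These are scarce transcripts, and si-NC 2 was well above si-NC 1 and 3 in *Sgo2a* and *Sgo1*.

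No member of the cohesin core, which these factors guard, was called lower. *Stag2*, a subunit of the ring's regulatory arm, was the only one of 5 called with the block, and it was higher at 134, 131 and 137 CPM in si-NC and 155, 156 and 164 CPM in si-*Snhg18* (0.24 ± 0.05, adjusted p = 0.017 with the block and 0.062 without). *Stag1*, its paralog, stood at 75.0, 60.1 and 79.7 CPM in si-NC and 108, 61.8 and 92.1 CPM in si-*Snhg18* (0.26 ± 0.09, adjusted p = 0.08). *Smc3*, a ring subunit, stood at 91.4, 91.3 and 94.4 CPM in si-NC and 106, 90.8 and 98.0 CPM in si-*Snhg18* (0.09 ± 0.07, adjusted p = 0.36). The groups did not overlap for *Stag2*, and its pair differences of 0.22, 0.24 and 0.26 were close to each other, while those of *Stag1* were 0.53, 0.04 and 0.21. *Smc1a* gave 0.01 ± 0.06 (adjusted p = 0.92) and *Rad21*, the subunit that separase cuts, -0.05 ± 0.05 (adjusted p = 0.54).

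The interphase microtubule group held the 2 members called without the block, in opposite directions. *Taok1*, a kinase of the Hippo and p38 pathways (GRCm38 chromosome 11, 77529162 to 77607815, on the minus strand), stood at 152, 163 and 167 CPM in si-NC and 117, 103 and 105 CPM in si-*Snhg18*, a log2 fold change of -0.57 ± 0.08 without the block (adjusted p = 0.014) and -0.57 ± 0.07 with it. *Clip1*, the microtubule plus-end protein CLIP-170 (GRCm38 chromosome 5, 123577795 to 123684618, on the minus strand), stood at 83.4, 85.4 and 85.1 CPM in si-NC and 120.2, 115 and 112 CPM in si-*Snhg18*, a log2 fold change of 0.45 ± 0.06 without the block (adjusted p = 0.014) and 0.45 ± 0.06 with it. In both genes the 3 libraries of a group lay close together and the groups did not overlap, and library 2 did not stand apart. Leaving out 1 library at a time, *Taok1* ranged from -0.63 to -0.54 and *Clip1* from 0.42 to 0.48, with adjusted p-values up to 0.098 and 0.11. *Clasp1*, a plus-end protein that stabilizes microtubules, stood at 153, 135 and 154 CPM in si-NC and 164, 146 and 165 CPM in si-*Snhg18* (0.11 ± 0.05, adjusted p = 0.19), and *Clasp2* gave -0.09 ± 0.11 (adjusted p = 0.58).

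The falls of the mitotic members were of like size. With the block, the quartiles of the 46 log2 fold changes were -0.74 and -0.52 and their median -0.63, and 28 of the 35 called lower were at least 1.5-fold lower, as were 850 of the 1972 genes called lower in all. The members that differed least between the groups or were higher, *Bub3*, *Zwint*, *Incenp* and *Pttg1*, were also those in which library 2 stood apart least among the 46. Across both groups, the libraries numbered 2 exceeded those numbered 1 and 3 by a median of 0.59 on the log2 CPM scale over the members (0.39 in si-NC and 0.71 in si-*Snhg18*) and by 0.01 over all genes, and this difference was positive in 49 of the 55. Library 2 was the highest of its group in both groups for 45 of the 46 mitotic members and for 32.2% of all genes. Over the 55 members, the knockdown log2 fold change and this difference of the libraries numbered 2 had a Pearson's r of -0.743 and a Spearman's rho of -0.5, over the 46 an r of -0.542 and a rho of -0.211, and over all genes an r of -0.38. Genes are not independent replicates, and both measures come from the same 6 libraries.

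**Figure D4:**
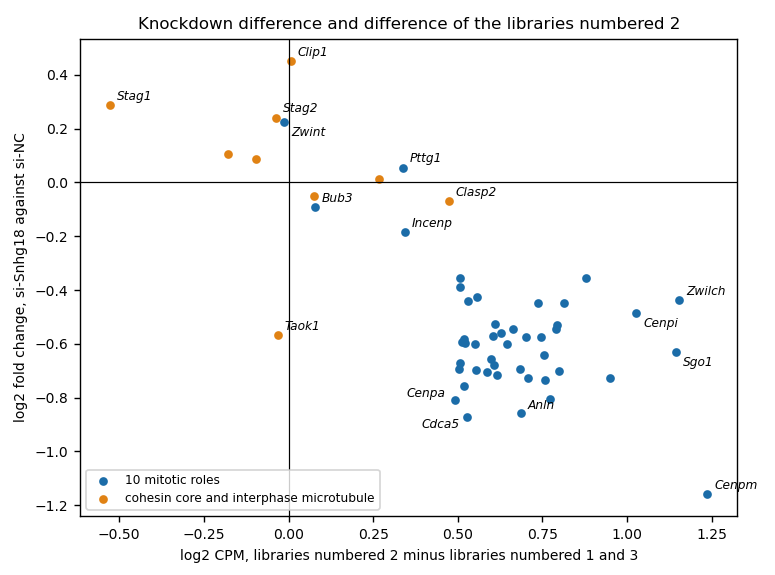
Log2 fold change of each member without the block (vertical axis) against its log2 CPM in the libraries numbered 2 minus that in the libraries numbered 1 and 3 of both groups (horizontal axis), with the 46 mitotic members in blue and the 9 others in orange. Most blue points lie at the lower right, with *Zwint*, *Pttg1*, *Bub3* and *Incenp* nearer the orange points, and *Taok1* stands alone low on the plot near 0 on the horizontal axis.

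The promoter letters can be set beside these calls. Of the 32 members that were called lower with the block and had a window, 25 (78.1%) held TTTGAA or TTCGAA, and of the 13 other members with a window 4 (30.8%) did. The 13 include *Stag1*, *Smc1a*, *Smc3*, *Clip1* and *Clasp2* of the cohesin core and interphase group, so this comparison partly follows the split by role. Of the 39 members of the 10 mitotic roles with a window, 28 (71.8%) held the letters. The difference was not tested. CCAAT letters were about as frequent in both, in 23 of 32 (71.9%) and in 9 of 13 (69.2%).

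Other genes of cell division were examined in 9 lists of 136 genes, of which 135 were tested and *Haus5* was not. With the block 56 were called lower and 8 higher, where 13.6% of all genes were called in each direction, and without it 1 lower (*Anapc1*) and 2 higher (*Haus7* and *Nfya*), where 3.71% and 3.65% of all genes were. Of the other kinetochore and centromere genes, 10 of 28 fell and none rose (24 of the 28 had a negative fold change), with *Trip13*, the checkpoint remodelling ATPase, at 15.5 ± 3.14 CPM in si-NC and 8.54 ± 3.46 CPM in si-*Snhg18* (mean ± SD, -0.90 ± 0.16 with the block, adjusted p = 0.0065). *Cenpt*, of the inner kinetochore, fell as well (-0.48 ± 0.10, adjusted p = 0.015). Of 27 other spindle and centrosome genes tested, 16 fell and 2 rose, the rises being the augmin subunits *Haus7* and *Haus8*. *Ckap2l* (-0.85 ± 0.12), *Kifc1* (-0.61 ± 0.09) and *Dlgap5* (-0.83 ± 0.13), all of spindle assembly, had the smallest p-values in that list. Of 10 other cytokinesis genes 6 fell, led by the abscission factor *Cep55* (-0.79 ± 0.12, adjusted p = 0.0042), *Kif14* (-0.85 ± 0.15) and *Aspm* (-0.67 ± 0.13).

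Condensin, which compacts mitotic chromosomes, fell in 6 of 8 genes, with *Ncapd2* at 81.0 ± 15.3 CPM in si-NC and 55.1 ± 16.3 CPM in si-*Snhg18* (-0.58 ± 0.08, adjusted p = 0.0035), followed by *Smc2* (-0.60 ± 0.12) and *Ncapg2* (-0.48 ± 0.09). Mitotic cyclins and Cdk1 regulators fell in 6 of 8, with *Ccnb1*, cyclin B1, at 50.1 ± 9.42 CPM in si-NC and 29.4 ± 12.2 CPM in si-*Snhg18* (-0.82 ± 0.12, adjusted p = 0.0037), followed by *Wee1* (-0.88 ± 0.15) and *Ccna2* (-0.80 ± 0.14). Replication and G1/S genes fell in 7 of 15, with *Tyms* (-0.58 ± 0.09), *Cdc6* (-0.68 ± 0.12) and *Rrm2* (-0.67 ± 0.13) leading. Their median log2 fold change without the block was -0.28, compared with -0.39 for condensin, -0.51 for the mitotic cyclins and -0.60 for the 46 mitotic members, and the differences between lists were not tested.

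The remaining lists were mixed. Of 8 genes of cohesin loading and release, the acetyltransferase *Esco2* fell (-0.78 ± 0.18, adjusted p = 0.02) and the loader subunits *Mau2* (0.40 ± 0.07, adjusted p = 0.0065) and *Nipbl* and the release factor *Pds5b* (0.24 ± 0.06, adjusted p = 0.03) rose with the block. In the anaphase promoting complex, 3 of 17 genes fell and 2 rose, shares near those of all genes called with the block (13.6% each way). The rises were *Anapc16* at 34.0 ± 3.77 CPM in si-NC and 54.4 ± 13.4 CPM in si-*Snhg18* (0.65 ± 0.10, adjusted p = 0.0046) and *Anapc7* (0.46 ± 0.08), and the falls were *Anapc1* and the ubiquitin-conjugating enzymes *Ube2c* and *Ube2s* (-0.41 ± 0.07 for *Ube2s*, adjusted p = 0.0059). Of 14 regulators of the mitotic programme, 1 fell, 1 rose and 12 were not called with the block. Of all genes, 13.6% were called each way. *Foxm1*, a transcription factor of G2/M genes, fell, with 63.0 ± 7.88 CPM in si-NC and 47.7 ± 9.65 CPM in si-*Snhg18* (-0.41 ± 0.09, adjusted p = 0.015 with the block and 0.20 without). *Nfya*, the DNA-binding subunit of NF-Y, rose, with 49.2 ± 2.33 CPM in si-NC and 71.0 ± 6.02 CPM in si-*Snhg18* (0.52 ± 0.07, adjusted p = 0.0022 with the block and 0.023 without), and *Mybl2*, which joins MuvB, gave -0.54 ± 0.17 (adjusted p = 0.0505).

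**Figure D5:**
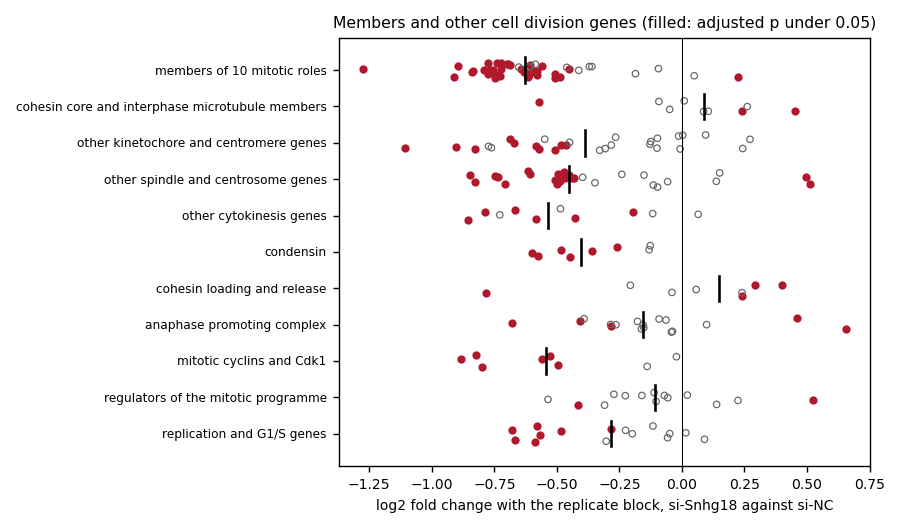
Log2 fold change with the replicate block for the members and for the 9 lists of other cell division genes, a point per gene, filled where the adjusted p was under 0.05, with black bars at the medians. The mitotic lists and condensin lie mostly left of 0, and the cohesin lists, the anaphase promoting complex and the regulators lie on both sides of it.

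Reads shared with other genes bear on some of these values. Of the 55 members, 30 overlap another gene in the table and 10 overlap a tested gene, each on the opposite strand, and for 7 that gene held at least 10% as many reads (*Cdc25b*, *Cenpk*, *Cdca8*, *Kif18a*, *Kif20a*, *Cdc20* and *Sgo2a*). The library kit keeps the strand, but the strand setting of the counting is not given in the sources used here, so these 7 values are uncertain.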

How the data were processed

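RNA sequencing of 6 libraries of mPASMCs was analysed, 3 transfected with si-NC and 3 with si-*Snhg18*, grouped by the sample labels. The authors prepared the libraries with a stranded mRNA kit and deposited whole-number counts of reads per gene, not normalized, with exon lengths and GRCm38 positions. The submitters' processing notes name HISAT2 and mm10, and the counting program, its strand setting and read filters are not given in the sources used here. The columns of the si-*Snhg18* libraries carry a short name for the siRNA and were matched to the labels by siRNA and repeat number.

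The counts were then tested by edgeR 4.0.16 (R 4.3.3), using its quasi-likelihood functions glmQLFit and glmQLFTest after TMM scaling and without a block. filterByExpr, set to a minimum count of 10, left 14531 genes, over which p-values were adjusted by Benjamini-Hochberg. Log2 CPM has a prior count of 2, and levels between genes are compared as CPM per kb of exon. The SE of a log2 fold change is its size divided by the square root of F. A second fit took the replicate number as a block. The labels number the repeats 1 to 3 in both groups, and deviations from the group means over 14531 genes had a Pearson's r of 0.41, 0.742 and 0.359 between same-numbered libraries, so the numbers were taken to pair the libraries. As the deviations of 3 libraries cancel, the values for numbers 1 and 3 can follow from number 2 and do not by themselves show that they pair. The common biological coefficient of variation was 0.218 without the block and 0.101 with it. The fits were tested on simulated data. Any effect of the replicate number was set the same in both groups there, so the simulation did not test the pairing.

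Alternatives were DESeq2 1.42.0, voom in limma 3.58.1, other scalings and filters, an exon length offset and leaving out libraries. An exact permutation test of 3 against 3 libraries reaches no two-sided p below 0.1. Promoter windows came from RefSeq (GRCm38.p6). The members and lists were chosen with earlier results of these data known. Values in every library are given for *Snhg18*, for members called without the block, for the 3 members of each role with the smallest p with the block and for the largest rise and fall, and other cell division genes are named up to 3 per list by the same p, together with those called without the block and the few rises and falls of a list, which were chosen after their values were seen. A gene that this rule would name is not reported here.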

Additional observations from a re-analysis of the deposited data

How the results depend on the processing

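The direction of the members as a set and its size held under the scalings, filters and tools tried, whereas the number of calls did not. Without the block, 1 member was called lower and 1 higher, and the same numbers came with RLE size factors, library totals, no filter, limma-voom and an exon length offset. These fits called 1.89% to 3.77% of all genes lower and 1.61% to 4.22% higher. A filter at 50 counts gave 1 and 2 (5.17% and 4.93% of all genes), and DESeq2 9 and 3 (7.24% and 7.38%). The replicate block gave 36 and 3, with the exon length offset (13.3% and 14.2% of all genes) or without it (13.6% each way). Leaving out 1 library at a time without the block gave 0 to 37 members lower and 0 to 4 higher. Of all genes, 0% to 11.7% were then called lower and 0% to 10.4% higher. The median log2 fold change of the members went from -0.915 (without si-*Snhg18* 2) to -0.35 (without si-*Snhg18* 1). *Snhg18* ranged from -1.14 to -1.06 and lost its call without si-NC 1, si-NC 3 or si-*Snhg18* 3 (adjusted p 0.0659, 0.07 and 0.0703), fits in which no gene was called. Further alternatives were chosen after seeing the data. With the block, leaving out the libraries numbered 1, 2 or 3 gave 35, 37 and 4 members lower and 3, 2 and 1 higher, and the cause was not tested. Those fits called 15.7%, 12.3% and 2.45% of all genes lower and 15.4%, 11.7% and 1.99% higher. A term for the libraries numbered 2 in place of the block gave 40 and 3 (15.6% and 15.8% of all genes). With the block, DESeq2 gave 36 and 3 (11% and 10.8%), limma-voom 36 and 3 (13.3% and 14.1%) and library totals 35 and 3 (12.5% and 14.3%). Sign changes met only members that no analysis called: leaving out 1 library, *Pttg1* ranged from -0.0732 to 0.186, *Smc1a* from -0.108 to 0.0826 and *Clasp2* from -0.316 to 0.0778. With the block, *Clasp2* was 0.0581 without number 1, *Smc1a* -0.0376 without number 2 and *Pttg1* -0.011 without number 3. A low level alone did not separate called from uncalled members with the block: the scarce *Sgo1*, *Espl1*, *Cenpi* and *Cenpm* were called, and the scarce *Kif18a*, *Cdc25c* and *Cenpk*, lower in 3 of 3 pairs, were not.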
